A study of Homo sapiens with 22 samples.

Results

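The genes described here are RIT1, its ubiquitin ligase adaptor LZTR1, and 7 other genes of small GTPases of the RAS family, namely NRAS, HRAS, RRAS, RRAS2, MRAS, RALA and RALB. These 9 genes were taken by gene name from a count table of 58735 genes, and all 9 passed the filter on low counts. Gene expression was measured by RNA sequencing in 22 xenografts of the human lung adenocarcinoma line H2110, which had grown to about 300 mm³ before oral dosing for 3 days. Of these, 4 tumours received RMC-7977 (10 mg/kg), an inhibitor of RAS proteins in their active state, and 4 received RMC-4550 (30 mg/kg), an inhibitor of the phosphatase SHP2. The MEK inhibitors Trametinib (0.3 mg/kg) and Cobimetinib (3 mg/kg) were given to 4 tumours each, and 6 tumours received Vehicle. Each compound had its own dose, and comparisons of drugs apply to those doses alone. All tumours came from 1 cell line, whose genotype the labels give as WT, although H2110 is known to carry an activating mutation in RIT1. By its title, the study asked about RIT1 as a driver and drug target in this cancer. The labels describe strand-specific libraries of total RNA, while the host's species and strain are not stated there. The labels describe separate tumours but do not say that they came from separate animals, so the p-values reflect only how much these samples varied, in part perhaps for technical reasons.

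RAS proteins are molecular switches that signal while bound to GTP and stop when the GTP is hydrolysed. The classical members, such as NRAS and HRAS, pass signals from receptors to the RAF, MEK and ERK kinases. RIT1 is a related GTPase that lacks the C-terminal lipid anchor of its relatives, and its protein is kept low by LZTR1, which presents RIT1 and other RAS proteins to the CUL3 ubiquitin ligase. MRAS forms a phosphatase complex with SHOC2 that activates RAF, while RALA and RALB act downstream of RAS through the RAL exchange factors and the exocyst. All of this is regulated mainly at the protein level, and only RNA was measured here.

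The structural difference of RIT1 from its relatives is visible at the 3' end of its coding sequence. The last 30 coding bases before the stop codon of each of the 9 genes are shown 5' to 3', from GENCODE 29 on hg38, with the last 4 codons in capitals. They are shown because the lipid anchor of RAS proteins is added at a cysteine encoded in this stretch.
RIT1: ccattccggaagaagaaaGATTCAGTAACT
NRAS: ggttgtatgggattgccaTGTGTGGTGATG
HRAS: ggctgcatgagctgcaagTGTGTGCTCTCC
RRAS: aagggcgggggctgccccTGCGTCCTCCTG
RRAS2: gacaagaaaggctgccatTGTGTCATTTTC
MRAS: ggcacccacaaactgcaaTGTGTGATCTTG
RALA: aagagaatcagagaaagaTGCTGCATTTTA
RALB: aaaagttttaaagaaagaTGTTGCTTACTA
LZTR1: aagcagtgcgcagagctgGGCGCCGACATC
Of the 8 GTPase genes, 7 had a cysteine codon (TGT or TGC) at the fourth-last place, and RIT1 had GAT there and no cysteine codon among its last 4. RALA and RALB had 2 cysteine codons among the last 4. The RIT1 stretch lay on the minus strand at chr1:155900391-155900420, in exon 6 of 6, and that of LZTR1, which is no GTPase, on the plus strand at chr22:20997316-20997345, in exon 21 of 21. These are reference sequences and were not read from the tumours.

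The libraries held between 7761987 and 17265754 counts per tumour, and the 9 genes together took 0.041% to 0.069% of them. Total counts were 10353740 to 15005429 with RMC-7977, 11951272 to 15888488 with RMC-4550, 7761987 to 13133140 with trametinib, 12655067 to 15428394 with cobimetinib and 11160546 to 17265754 with Vehicle. Trametinib replicate 4, RMC-7977 replicate 3, RMC-4550 replicate 1 and Vehicle replicate 1 stood apart from the other libraries. In Trametinib replicate 4 ribosomal protein genes took 25.0% of the counts and its correlation with the others had a median of 0.751, and in this library and RMC-7977 replicate 3 only 1.99% and 5.02% of detected genes had 1 or 2 counts. Vehicle replicate 1 (0.933) and RMC-4550 replicate 1 (0.936) had the next lowest median correlations. All 10 markers of lung adenocarcinoma epithelium were detected, with summed levels of 3215 to 6914 CPM (counts divided by the TMM-scaled library size, on the usual CPM scale). Of these, NKX2-1, NAPSA and SFTPB averaged only 4.15, 1.32 and 4.72 CPM over all tumours. Each of the others, which are keratins, EPCAM, CDH1 and MUC1, averaged at least 174. Myeloid markers summed to 6.96 to 10.7 CPM with RMC-7977 and 11.8 to 27.1 with Vehicle, and endothelial markers to 19.1 to 77.9 with RMC-7977 and 40.6 to 198 with Vehicle. CD14 was the largest part of the myeloid sum, with a mean of 9.38 CPM over all tumours, and each other myeloid marker averaged at most 3.12. PECAM1 and CLDN5 made up most of the endothelial sum, with means of 26.2 and 56.05 CPM over all tumours, and the other 6 endothelial markers averaged at most 2.58. Of 10 fibroblast markers COL1A1 alone was abundant, at 20.1 to 304.4 CPM over all tumours, and the other 9 averaged at most 2.68. The haemoglobin genes HBB and HBD were at 0 in all 22 tumours. Red cell markers summed to under 1 CPM except in 1 trametinib tumour at 53.0. Whether reads of the host were removed is not stated in the labels.

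Genes that report ERK activity fell with RMC-7977, and were looked at as a check that the drugs acted. The list was chosen with earlier results of these data known, so the check is not independent. Of 10 such genes 9 were tested, and 6 fell with RMC-7977, 1 with RMC-4550 and 0 with trametinib or cobimetinib by edgeR, beside 0.748%, 0.0283%, 0% and 0% of all genes tested. At an unadjusted p under 0.05 there were 7 with RMC-7977, 7 with RMC-4550, 8 with trametinib and 3 with cobimetinib, where 10.3%, 4.24%, 18.8% and 3.30% of all genes had such a p. DESeq2, which tested all 10, called 7, 4, 5 and 0 in these drugs, beside 3.28%, 0.194%, 1.73% and 0.00572% of all genes. With the 4 libraries that stood apart left out, edgeR called 7, 3, 7 and 1 of the 9, beside 6.38%, 0.0619%, 15.1% and 0.0450% of all genes. DUSP6, an ERK phosphatase, averaged 1.42 CPM with RMC-7977 and 18.5 with Vehicle, a log2 fold change of -3.69 (SE 0.54, edgeR quasi-likelihood adjusted p = 9.90e-04). With RMC-4550 it averaged 1.60 CPM (log2 fold change -3.52, adjusted p = 0.0191), a call that was lost with the replicate number as a block (adjusted p = 0.403). The 6 calls with RMC-7977 were lost with this block as well. ETV4, a transcription factor induced by ERK, changed by -4.49 (adjusted p = 3.26e-04) and SPRY4, a feedback inhibitor, by -3.40 (adjusted p = 0.0122) with RMC-7977. ETV5, a relative of ETV4, changed by -2.71 (adjusted p = 7.36e-04) and PHLDA1, an ERK-induced gene, by -2.83 (adjusted p = 0.00214) in the same comparison. Under trametinib DUSP6, ETV4 and SPRY4 had log2 fold changes of -2.80, -1.63 and -2.35, with edgeR quasi-likelihood adjusted p values of 0.0663, 0.106 and 0.0896.

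RIT1 was the most abundant of the 9 transcripts when counts were divided by the gene length in the table. It averaged 32.5 CPM per kb over the 22 tumours, above 92.8% of the genes tested. RALA (25.3), HRAS (23.3) and NRAS (22.95) followed, then RRAS (15.6), RALB (15.2), RRAS2 (8.74), MRAS (5.36) and LZTR1 (2.10). RIT1 was above RALA in 20 of 22 tumours, and RALB, RRAS2, MRAS and LZTR1 kept their order in all 22. The neighbours RALA and HRAS (RALA higher in 12 of 22), HRAS and NRAS (HRAS higher in 13) and RRAS and RALB (RRAS higher in 11) could not be ordered. The order at the top depended on the length used. Divided by the length of the principal transcript, HRAS came first (48.4 CPM per kb) and RIT1 second (37.0), and LZTR1 stayed last (4.10).

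None of the 9 genes passed the threshold in any comparison of a drug with Vehicle. The test was edgeR's quasi-likelihood F-test with Benjamini-Hochberg adjustment over 17652 genes and a threshold of 0.05. With RMC-7977, 0 of 9 passed, beside 0.748% of all genes tested, and 1 of the 9 had an unadjusted p under 0.05, beside 10.3% of all genes. With RMC-4550, 0 of 9 passed, beside 0.0283% of all genes, and none had an unadjusted p under 0.05, beside 4.24%. With trametinib, 0 of 9 passed, beside 0% of all genes although 3327 had an unadjusted p under 0.05, and 1 of the 9 was among these. With cobimetinib, 0 of 9 passed, beside 0%, with 582 genes and none of the 9 at an unadjusted p under 0.05. In the test for any difference among the 5 groups, 0 of 9 passed, beside 1.46%, and LZTR1 had the smallest p of the 9 (unadjusted 0.00743, adjusted 0.145). The 54 direct tests of the 9 genes between pairs of drugs gave 0 calls and 4 unadjusted p under 0.05. These were LZTR1 for trametinib against each other drug, and RALB for RMC-7977 against trametinib. Of all genes, 18.2% had such a p for RMC-7977 against trametinib, 12.3% for RMC-4550 against trametinib and 16.7% for trametinib against cobimetinib. The background shares of calls were 0.0906% for RMC-7977 against RMC-4550, 0.408% against trametinib and 0.278% against cobimetinib, 0.0283% for RMC-4550 against cobimetinib, and 0% for RMC-4550 against trametinib and trametinib against cobimetinib. DESeq2 called 1 of the 9, LZTR1, with trametinib against Vehicle, in the test over 5 groups (background 7.00%) and in 1 of the 54 tests between drugs, RMC-7977 against trametinib (background 3.50%). It called 0 of the 9 with the other 3 drugs.

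The fold changes of the set were small. The median log2 fold change of the 9 genes was 0.14 with RMC-7977, 0.07 with RMC-4550, 0.07 with trametinib and 0.02 with cobimetinib, beside medians over all genes between -0.01 and 0.00. The median size without sign was 0.26 for the 9 genes and 0.24 for all genes with RMC-7977, and 0.15 against 0.35 with trametinib. In bulk tumours, fewer cells that express a gene and less of its RNA per cell cannot be told apart.

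**Figure D1:**
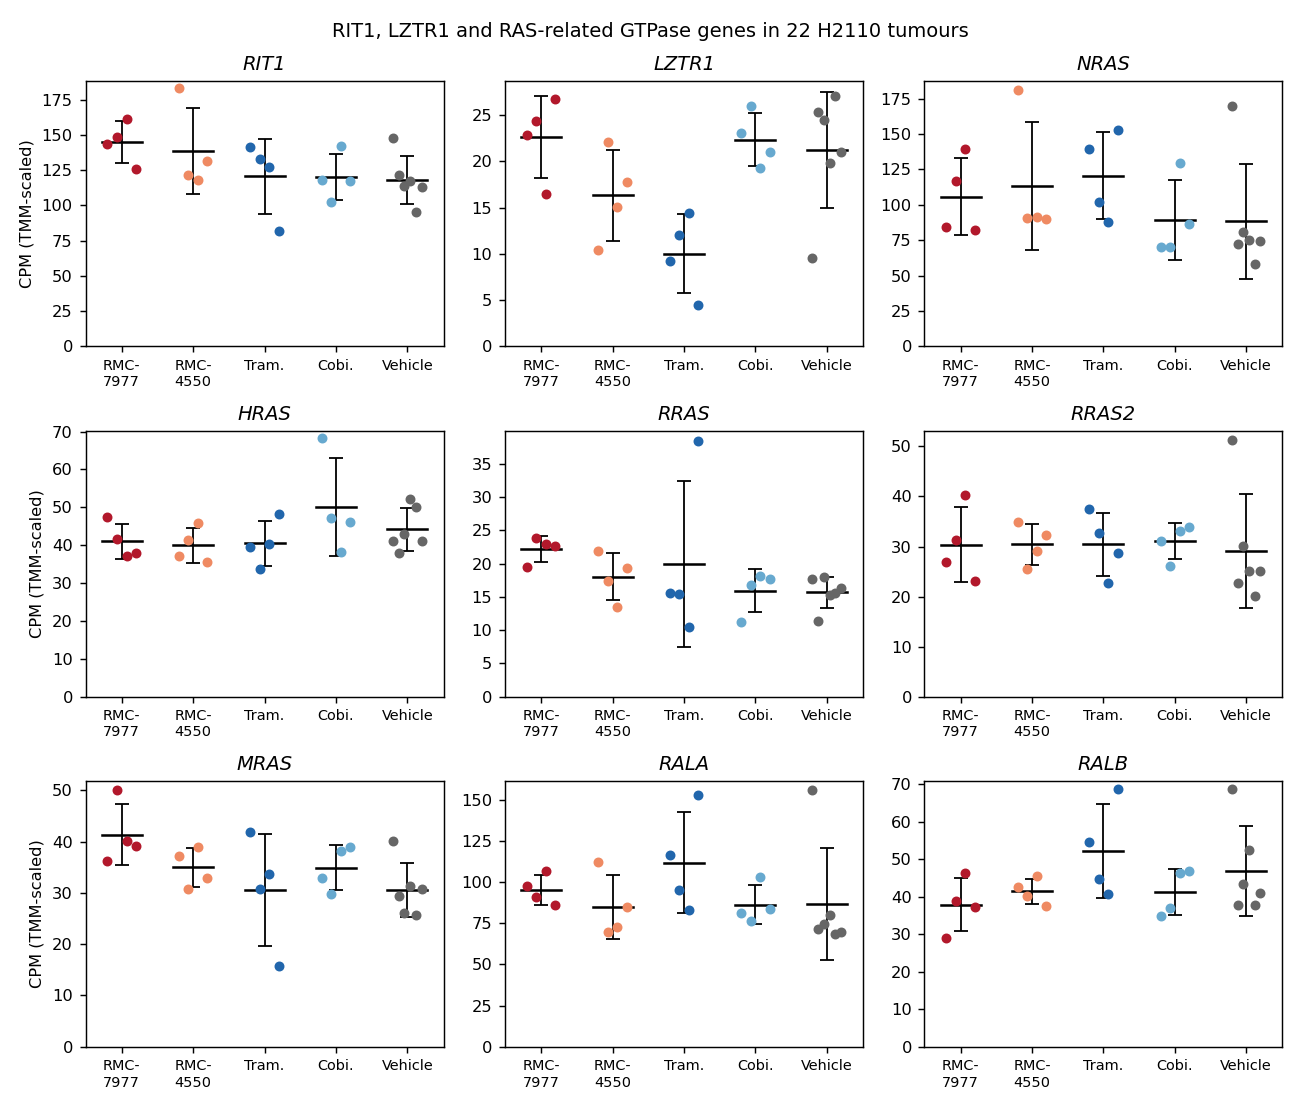
Level of each of the 9 genes (CPM, TMM-scaled, linear axis from 0) in each tumour by treatment, with points for tumours, horizontal lines for means and bars for SD (n = 4 per drug, n = 6 Vehicle). LZTR1 sits at 4.48 to 14.4 in the 4 trametinib tumours, and the RRAS points for RMC-7977 lie above those for Vehicle.

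**Figure D2:**
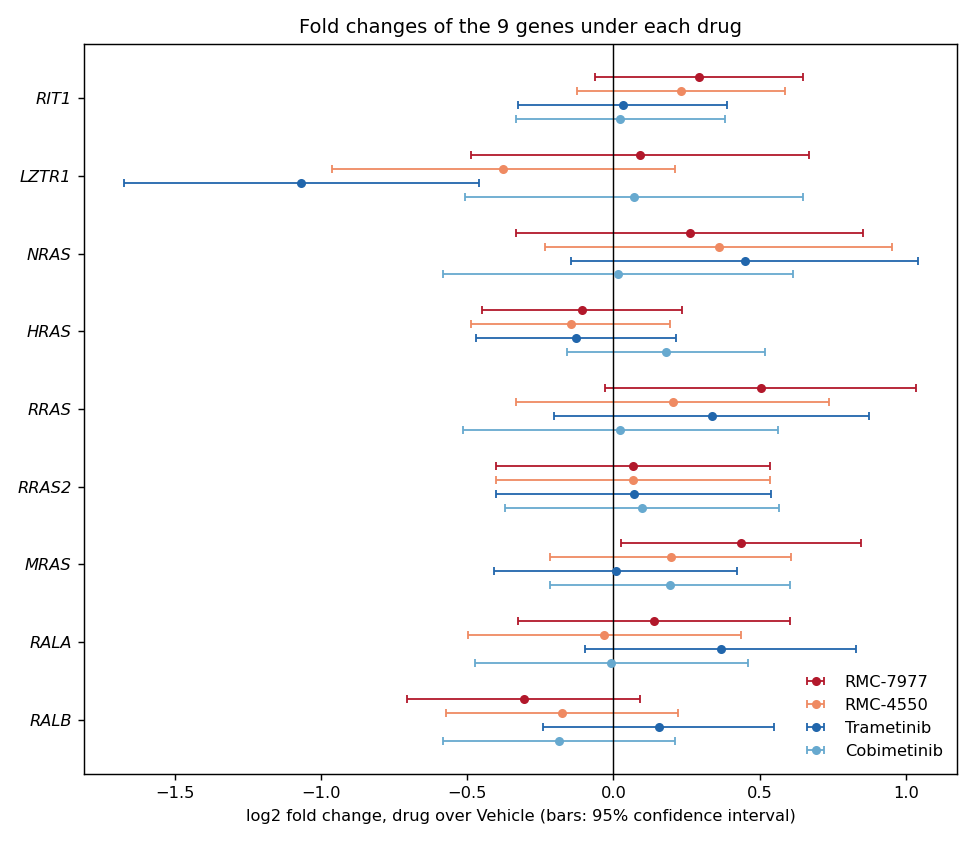
Log2 fold changes of the 9 genes over Vehicle for each drug, with 95% confidence intervals from edgeR's quasi-likelihood fit. The LZTR1 interval for trametinib (-1.67 to -0.46) and the MRAS interval for RMC-7977 (0.03 to 0.85) do not include 0, before adjustment for the number of genes tested.

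RIT1 (ENSG00000143622, chromosome 1, 155897808 to 155911404, minus strand) passed the threshold in no comparison, and its log2 fold changes over Vehicle were between 0.02 and 0.29. It measured 143, 149, 161 and 126 CPM in the RMC-7977 tumours, against a lowest, median and highest of 95.3, 115 and 148 in the Vehicle tumours. The 4 RMC-7977 tumours lay above 5 of the 6 Vehicle tumours, and the groups overlapped through Vehicle replicate 1 at 148. Such positions beside 5 of the 6 are also given below for LZTR1, NRAS, MRAS, RALA and the RIT1 to LZTR1 ratio. The share of all genes with such a position was not counted, so it does not set these genes apart. The fitted log2 fold change of RIT1 was 0.29 (SE 0.17, 95% interval -0.06 to 0.65, edgeR quasi-likelihood adjusted p = 0.606). Changes between a 0.958-fold and a 1.57-fold level lie within this interval.

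In the RMC-4550 tumours RIT1 measured 183, 122, 118 and 132 CPM. Replicate 1 was the highest of all 22 tumours, and the other 3 lay inside the Vehicle range. On the log2 scale the fold change was 0.23 (SE 0.17, interval -0.13 to 0.59), and it was 0.05 without RMC-4550 replicate 1. The trametinib tumours measured 141, 133, 127 and 81.9 CPM and the cobimetinib tumours 118, 102, 142 and 117. Trametinib replicate 4 was the lowest of all tumours, and all other tumours on the MEK inhibitors lay inside the Vehicle range. The log2 fold changes were 0.03 with trametinib (interval -0.33 to 0.39) and 0.02 with cobimetinib (interval -0.33 to 0.38). Over the 22 tumours RIT1 had a coefficient of variation of 17.5%, beside 17.4% for HRAS at the low end of the 9 genes and 34.1% for NRAS and 34.6% for LZTR1 at the high end. The highest RIT1 level was 2.24 times the lowest.

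Of 12 genes of known RIT1 effectors and partners, such as PAK kinases, p38 MAPK and 14-3-3 proteins, all 12 were tested and 0 passed the edgeR threshold in any drug. At an unadjusted p under 0.05 there were 3 with RMC-7977, beside 10.3% of all genes, and 2 with trametinib, beside 18.8%. DESeq2 called 1 of 12 with trametinib, beside 1.73%. When the 4 libraries that stood apart were left out, 1 passed with RMC-7977 (6.38% of all genes), 3 with trametinib (15.1%) and 4 over the 5 groups (12.1%). The 2 with the highest levels were YWHAZ, a 14-3-3 protein, and RAC1, a small GTPase of the cytoskeleton. YWHAZ averaged 839.5 ± 119 CPM with RMC-7977 and 627 ± 138 with Vehicle (SD, n = 4 and 6), a log2 fold change of 0.42 (SE 0.17, edgeR quasi-likelihood adjusted p = 0.364). RAC1 had a log2 fold change of 0.38 (SE 0.16, adjusted p = 0.393) in the same comparison. The median over the 12 genes was 0.10 with RMC-7977, where 11 of 12 were above 0 beside 49.3% of all genes.

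LZTR1 (ENSG00000099949, chromosome 22, 20982013 to 20999038, plus strand), the adaptor that directs RIT1 and other RAS proteins to degradation, had the largest fold change of the set, under trametinib. It measured 9.19, 12.1, 14.4 and 4.48 CPM in the trametinib tumours, against a lowest, median and highest of 9.60, 22.8 and 27.0 in the Vehicle tumours. All 4 trametinib tumours lay below 5 of the 6 Vehicle tumours (19.8 to 27.0), and the groups overlapped only through Vehicle replicate 1 at 9.60. The log2 fold change was -1.07 (SE 0.29, interval -1.67 to -0.46), and the adjusted p of 0.0947 (edgeR quasi-likelihood F-test over all genes, unadjusted 0.00142) missed the threshold. The lowest LZTR1 count in any library was 28, in Trametinib replicate 4.

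The call of LZTR1 depended on single libraries and on the method. With the 4 libraries that stood apart left out, an alternative chosen after seeing the data, the log2 fold change under trametinib was -1.01 (SE 0.17, adjusted p = 0.00469). In that setting 15.1% of all genes tested passed, so a call there was not rare. Without Trametinib replicate 3 it was -1.29 (adjusted p = 0.0222, background 7.84%), and without Vehicle replicate 1 it was -1.21 (adjusted p = 0.0470, background 4.19%). DESeq2 gave -1.09 (adjusted p = 0.0354, background 1.73%). Of 11 other settings 2 called it, and of 22 fits with 1 tumour left out 2 did, and the value was below 0 in each of these fits. Without Trametinib replicate 4 it was -0.88 (adjusted p = 0.661).

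**Figure D3:**
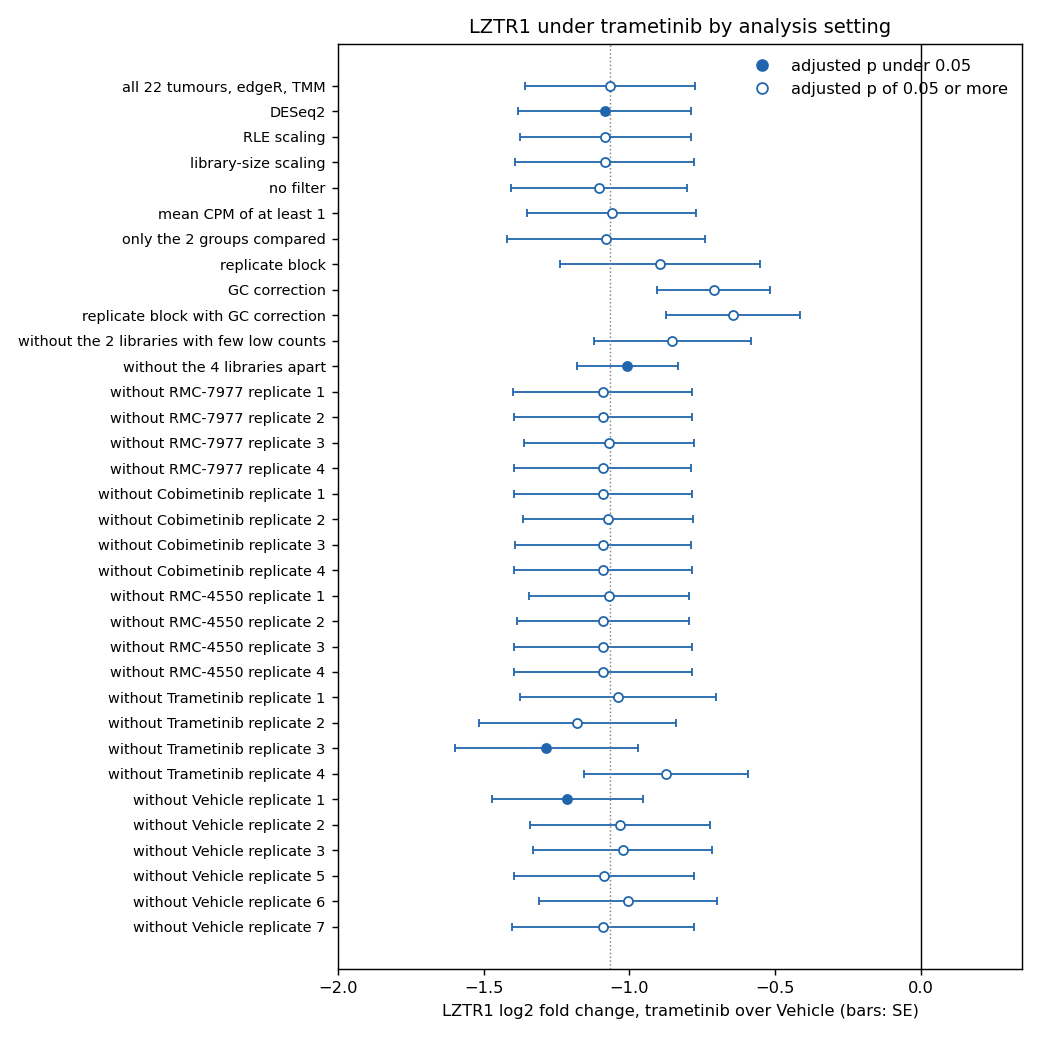
Log2 fold change of LZTR1 in trametinib tumours over Vehicle tumours under each analysis setting, with bars for SE and filled points where the adjusted p is under 0.05. The values lie between -1.29 and -0.64.

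In the other drugs LZTR1 measured 22.9, 24.3, 16.5 and 26.8 CPM with RMC-7977, 10.4, 22.1, 15.1 and 17.7 with RMC-4550 and 23.02, 25.9, 19.3 and 21.0 with cobimetinib. All 4 trametinib tumours were below all 4 tumours on RMC-7977 and below all 4 on cobimetinib, in comparisons where 6.14% and 7.01% of all genes did not overlap. LZTR1 was higher with RMC-7977 than with trametinib by a log2 fold change of 1.16 (SE 0.31, edgeR quasi-likelihood adjusted p = 0.0889), and lower with trametinib than with cobimetinib, the other MEK inhibitor, by -1.14 (SE 0.31, adjusted p = 0.183). Neither passed the threshold. Without Trametinib replicate 3 both did, with 1.36 for RMC-7977 over trametinib (adjusted p = 0.0249, background 7.07%) and -1.37 for trametinib over cobimetinib (adjusted p = 0.0476, background 1.72%). They also passed with the 4 libraries that stood apart left out, with 1.06 (adjusted p = 0.00629, background 5.30%) and -0.93 (adjusted p = 0.0130, background 3.02%), and so did LZTR1 over the 5 groups (adjusted p = 0.00590, background 12.1%). Against Vehicle the log2 fold changes were 0.09 with RMC-7977 (interval -0.49 to 0.67), -0.38 with RMC-4550 (interval -0.96 to 0.21) and 0.07 with cobimetinib (interval -0.51 to 0.65).

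The libraries differed in base composition, and how LZTR1 follows it across tumours was not tested. LZTR1 transcripts are 61.2% GC, and the rank correlation of each tumour's deviations with the GC content of genes was -0.484, -0.413, 0.054 and -0.102 in Trametinib replicates 1 to 4. Replicate 4, with the lowest LZTR1 of all 22 tumours, and replicate 3, with 14.4 CPM, were thus near 0. The correlation was -0.538 in Vehicle replicate 1 and 0.307 to 0.426 in the other 5 Vehicle tumours, and -0.584 in RMC-4550 replicate 1, where LZTR1 was the lowest of its group. With a correction for GC content the log2 fold change under trametinib was -0.71 (SE 0.19, edgeR quasi-likelihood adjusted p = 0.0916), and RMC-7977 over trametinib was 0.93 (adjusted p = 0.0417, background 0.719%). Of the other 2 GC-rich members under trametinib, HRAS (65.8% GC) had a log2 fold change of -0.13 and RRAS (63.5% GC) of 0.34. The RRAS value was -0.22 without Trametinib replicate 4. LZTR1 overlaps the non-coding gene AC002470.2 over 16109 bases on the same strand. That gene had 2 counts in all 22 tumours together, and what the overlap did to the LZTR1 counts was not tested.

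**Figure D4:**
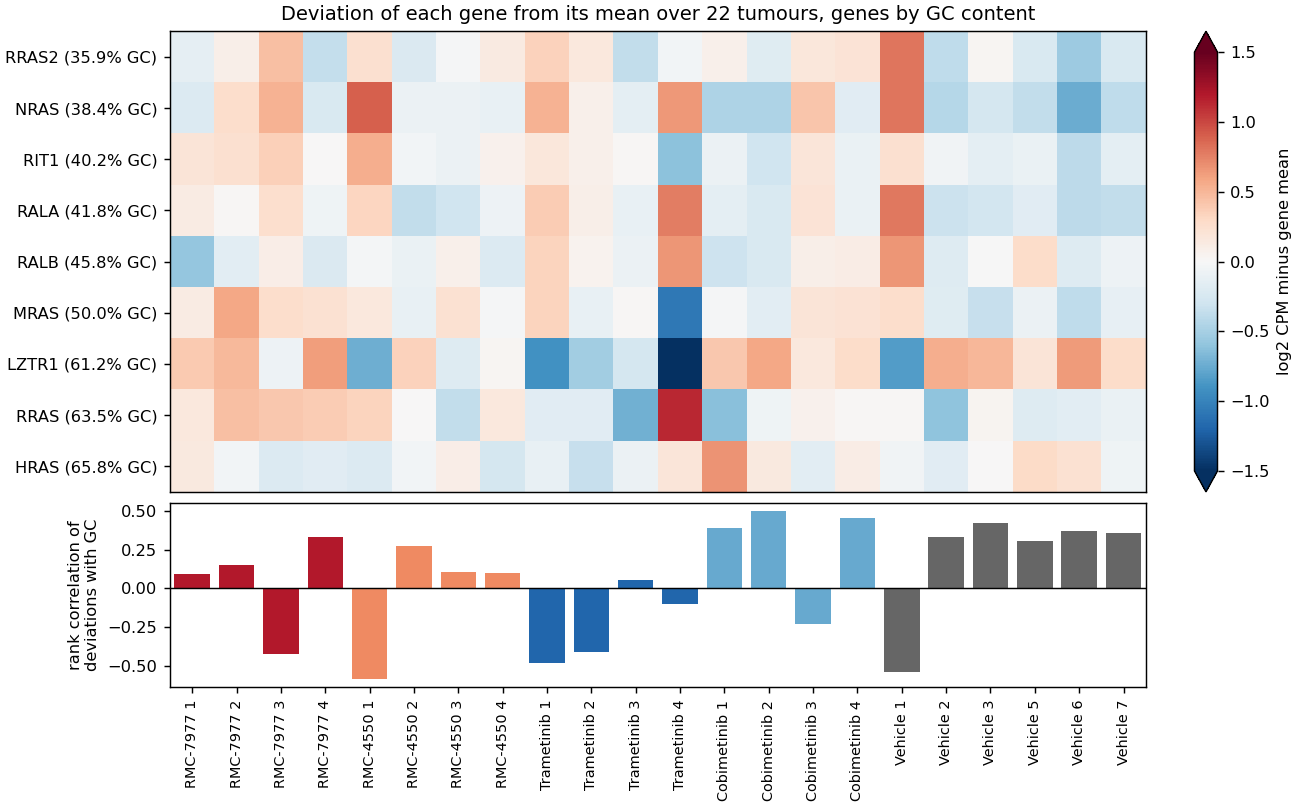
Upper panel, deviation of log2 CPM from the gene's mean over 22 tumours for the 9 genes, ordered by GC content and coloured from -1.5 to 1.5. Lower panel, rank correlation of all genes' deviations with GC content in each tumour, which ranges from -0.584 in RMC-4550 replicate 1 to 0.4998 in Cobimetinib replicate 2.

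The CUL3 ligase genes with which LZTR1 acts showed no call with all tumours. Of 10 such genes all were tested and 0 passed by edgeR or DESeq2 in any drug, with 1 at an unadjusted p under 0.05, under trametinib, beside 18.8% of all genes. Of the 10, 1 passed under trametinib without the 4 libraries that stood apart, beside 15.1%. CUL3 itself, the scaffold, had log2 fold changes of 0.17 with RMC-7977 and 0.09 with trametinib (SE 0.16 each), and was named after its values were seen. CAND1, which exchanges adaptors on cullins, averaged 174 ± 44 CPM with trametinib and 160 ± 52 with Vehicle, and UBE2M, a NEDD8-conjugating enzyme, had a log2 fold change of -0.11 (SE 0.14) with trametinib. The median over the 10 genes under trametinib was 0.14, with 9 of 10 above 0 beside 49.6% of all genes. With RMC-4550 it was 0.13, also with 9 of 10 above 0, beside 49.3%. With RMC-7977 and cobimetinib it was -0.01 each, with 4 of 10 above 0.

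Among the classical RAS genes, NRAS (ENSG00000213281, chromosome 1) passed the threshold in no comparison. It measured 84.6, 117, 139 and 82.6 CPM with RMC-7977, against a lowest, median and highest of 58.0, 74.8 and 170 with Vehicle. Each RMC-7977 tumour lay above 5 of the 6 Vehicle tumours and below Vehicle replicate 1. This gave a log2 fold change of 0.26 (SE 0.29, interval -0.33 to 0.86). With RMC-4550 the 4 tumours measured 181, 91.0, 91.5 and 90.1, with trametinib 139, 102, 87.7 and 153, and with cobimetinib 70.2, 70.5, 130 and 86.4. The trametinib and RMC-4550 tumours were all above the same 5 Vehicle tumours (58.0 to 81.0). The log2 fold changes were 0.36 (SE 0.29) with RMC-4550, 0.45 (SE 0.29, interval -0.14 to 1.04, edgeR quasi-likelihood adjusted p = 0.387) with trametinib and 0.02 with cobimetinib. Without the 4 libraries that stood apart the trametinib value was 0.58 (SE 0.18, adjusted p = 0.0346), in the setting where 15.1% of all genes passed.

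HRAS (ENSG00000174775, chromosome 11) was among the steadiest of the 9 genes. It measured 47.4, 41.5, 37.2 and 38.0 CPM with RMC-7977, against a lowest, median and highest of 37.8, 42.0 and 52.2 with Vehicle, and the groups overlapped. The log2 fold changes were -0.11 with RMC-7977 (interval -0.45 to 0.23), -0.15 with RMC-4550 (interval -0.49 to 0.20), -0.13 with trametinib (interval -0.47 to 0.21) and 0.18 with cobimetinib (interval -0.16 to 0.52). The highest value was 68.4 in Cobimetinib replicate 1, and without it the cobimetinib fold change was -0.01. Under the GC correction the signs turned for RMC-4550 (0.08), trametinib (0.32) and cobimetinib (-0.03), with no call.

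RRAS (ENSG00000126458, chromosome 19), an R-RAS protein known for its part in integrin adhesion, was the 1 gene of the 9 whose RMC-7977 and Vehicle tumours did not overlap, in a comparison where 4.12% of all genes did not overlap. It measured 19.5, 23.8, 23.04 and 22.7 CPM with RMC-7977, against a lowest, median and highest of 11.4, 16.0 and 17.9 with Vehicle. All 4 RMC-7977 tumours lay above all 6 Vehicle tumours. The fitted log2 fold change was 0.50 (SE 0.26, interval -0.03 to 1.04), and the edgeR quasi-likelihood adjusted p of 0.521 missed the threshold. All 4 also lay above the 4 cobimetinib tumours (11.3, 16.7, 18.2 and 17.7), where 10.5% of all genes did not overlap. No member separated RMC-4550 from trametinib (3.98% of all genes) or RMC-4550 from cobimetinib (8.30%). With trametinib RRAS measured 15.5, 15.5, 10.5 and 38.4, and the fold change of 0.34 was -0.22 without Trametinib replicate 4. With RMC-4550 it measured 21.9, 17.4, 13.5 and 19.4 (log2 fold change 0.20, SE 0.26). In no other drug did a member separate from Vehicle, where 1.42% of all genes did so with RMC-4550, 1.17% with trametinib and 1.48% with cobimetinib.

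RRAS2 (ENSG00000133818, chromosome 11), or TC21, is the R-RAS protein most like classical RAS in its signalling. Its log2 fold changes over Vehicle were between 0.07 and 0.10 in all 4 drugs, with SE of 0.23 each. It measured 23.03 to 40.3 CPM with RMC-7977, 25.4 to 34.8 with RMC-4550, 22.8 to 37.5 with trametinib, 26.0 to 33.9 with cobimetinib and 20.1 to 51.4 with Vehicle. The highest of the 22 tumours was Vehicle replicate 1. With the replicate number as a block all 4 values were below 0 (-0.13 to -0.10), and none passed.

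MRAS (ENSG00000158186, chromosome 3) had the only unadjusted p under 0.05 of the set with RMC-7977. It measured 36.2, 50.1, 40.0 and 39.2 CPM with RMC-7977, against a lowest, median and highest of 25.6, 30.1 and 40.1 with Vehicle. The 4 RMC-7977 tumours lay above 5 of the 6 Vehicle tumours, and Vehicle replicate 1 at 40.1 lay among them. On the log2 scale the fold change was 0.44 (SE 0.20, interval 0.03 to 0.85), and the adjusted p was 0.434 (edgeR quasi-likelihood F-test over all genes, unadjusted 0.0380). With the 4 libraries that stood apart left out it was 0.53 (SE 0.14, adjusted p = 0.0281, background 6.38%). With trametinib MRAS measured 42.0, 30.8, 33.8 and 15.8, where Trametinib replicate 4 was the lowest of all tumours, and the log2 fold change was 0.01 (SE 0.20). It was 0.20 with RMC-4550 and 0.19 with cobimetinib (SE 0.20 each).

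The partners of MRAS in the SHOC2 complex showed no call with all tumours. All 6 genes listed for that complex were tested, and 0 passed by edgeR or DESeq2 in any drug, with 1 at an unadjusted p under 0.05, under trametinib, beside 18.8% of all genes. PPP1CB, the catalytic subunit of protein phosphatase 1 found in the complex, averaged 256 ± 49 CPM with RMC-7977 and 209 ± 79 with Vehicle, a log2 fold change of 0.30 (SE 0.23). PPP1CA, another catalytic subunit, had a log2 fold change of 0.04 (SE 0.14). Under trametinib 5 of 6 genes were above 0 with a median of 0.14, beside 49.6% of all genes above 0. It was also 5 of 6 with RMC-7977 (median 0.03) and RMC-4550 (median 0.10), beside 49.3% each. With cobimetinib 2 of 6 were above 0 (median -0.04). Without the 4 libraries that stood apart, 4 of the 6 passed under trametinib, where 15.1% of all genes passed.

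RALA (ENSG00000006451, chromosome 7) and RALB (ENSG00000144118, chromosome 2) encode the RAL GTPases. RALA measured 98.0, 91.2, 107 and 85.9 CPM with RMC-7977, against a lowest, median and highest of 68.6, 73.1 and 156 with Vehicle. All 4 RMC-7977 tumours lay above 5 of the 6 Vehicle tumours (68.6 to 80.2) and below Vehicle replicate 1, a position not counted over all genes. The log2 fold change was 0.14 (SE 0.22, interval -0.33 to 0.60). With trametinib RALA measured 117, 95.3, 83.0 and 153, again above the same 5 Vehicle tumours, and the log2 fold change was 0.37 (SE 0.22, edgeR quasi-likelihood adjusted p = 0.366). Without Vehicle replicate 1 the trametinib value was 0.62 (SE 0.17, adjusted p = 0.0493, background 4.19%), and without the 4 libraries that stood apart it was 0.41 (SE 0.12, adjusted p = 0.0306, background 15.1%). The values were -0.03 with RMC-4550 and -0.01 with cobimetinib (SE 0.23 and 0.22). The antisense gene AC004837.2, which overlaps RALA, had 181 counts in all tumours beside 25555 for RALA, and whether the counting used strand is not given in the sources used here.

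RALB measured 28.98, 38.9, 46.4 and 37.4 CPM with RMC-7977, against a lowest, median and highest of 37.9, 42.2 and 68.8 with Vehicle. RMC-7977 replicate 1 was the lowest of all 22 tumours and Vehicle replicate 1 the highest, and the groups overlapped. This gave a log2 fold change of -0.31 (SE 0.19, interval -0.71 to 0.09, edgeR quasi-likelihood adjusted p = 0.655). It was -0.18 with RMC-4550, 0.15 with trametinib and -0.19 with cobimetinib (SE 0.19 each). Between drugs the largest RALB difference was RMC-7977 against trametinib, -0.46 (SE 0.21, adjusted p = 0.251).

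The ratio of RALA to RALB within a tumour does not depend on how libraries are scaled, and it was higher with RMC-7977 than with Vehicle in every tumour. The log2 ratio of counts per length was 1.43, 0.90, 0.88 and 0.87 with RMC-7977, against a lowest and highest of 0.28 and 0.85 with Vehicle. The means were 1.02 ± 0.27 with RMC-7977 and 0.52 ± 0.19 with Vehicle (SD, n = 4 and 6), a difference of 0.50. The two-sided exact permutation p was 0.00952, the smallest that 4 against 6 tumours allow, and 0.114 after Benjamini-Hochberg adjustment over the 12 ratio tests. The ratios were chosen with earlier results of these data known, which this adjustment does not cover. RMC-7977 replicate 1 was far above the other 3, and the difference without it was 0.36. With trametinib the mean was 0.76 ± 0.05, a difference of 0.24 (exact permutation p = 0.0476, adjusted 0.1905).

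The ratio of RIT1 to LZTR1 missed the threshold after adjustment under trametinib. Its log2 value averaged 4.87 ± 0.47 with trametinib and 3.73 ± 0.73 with Vehicle (SD, n = 4 and 6), a difference of 1.15 (exact permutation p = 0.0381, adjusted 0.1905). All 4 trametinib tumours (4.33 to 5.38) lay above 5 of the 6 Vehicle tumours (3.01 to 3.75), and Vehicle replicate 1 stood at 5.14. Without Vehicle replicate 1 the difference was 1.43, with an exact permutation p adjusted over the 12 tests of 0.0381. Leaving out the only Vehicle tumour that overlapped fixed this separation in advance, so the p adds no support. In the same setting RALA to RALB passed with RMC-7977 (0.56) and trametinib (0.30), and NRAS to HRAS with RMC-4550 (0.75) and trametinib (0.86). Each of these tests gave the smallest p that 4 against 5 tumours allow. RIT1 (40.2% GC) to LZTR1 (61.2%) and NRAS (38.4%) to HRAS (65.8%) each set a GC-poor gene over a GC-rich one. The Vehicle libraries left in this setting had GC correlations of 0.307 to 0.426, beside -0.484 to 0.054 with trametinib. The part of GC content in these ratios was not tested. With all tumours NRAS to HRAS differed from Vehicle by 0.42 with RMC-7977, 0.53 with RMC-4550, 0.64 with trametinib and -0.09 with cobimetinib (exact permutation p = 0.2762, 0.2095, 0.1238 and 0.8381).

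These differences were smaller over the 3 pairs of same-numbered tumours each of trametinib and RMC-4550 with Vehicle, which were taken as paired. The pairs hold replicates 1 to 3 alone, and leave out replicate 4 of each drug and Vehicle replicates 5, 6 and 7. A mean of paired differences equals the difference in means of the same tumours. The smaller values thus reflect which tumours were used, with more weight on Vehicle replicate 1, and not the pairing itself. For RIT1 to LZTR1 the mean paired difference with trametinib was 0.71, against 1.15 unpaired, and the 3 pairs gave -0.0038, 1.201 and 0.925. For NRAS to HRAS it was 0.22 with trametinib, from pairs of -0.23, 0.67 and 0.21, and 0.18 with RMC-4550, from 0.24, 0.21 and 0.08. For RALA to RALB it was 0.11 with trametinib, from -0.09, 0.17 and 0.24. Pair 1, which holds Vehicle replicate 1, was below 0 in all 3 ratios with trametinib. An exact test over 3 pairs cannot give a p below 0.25, so none of these could pass.

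**Figure D5:**
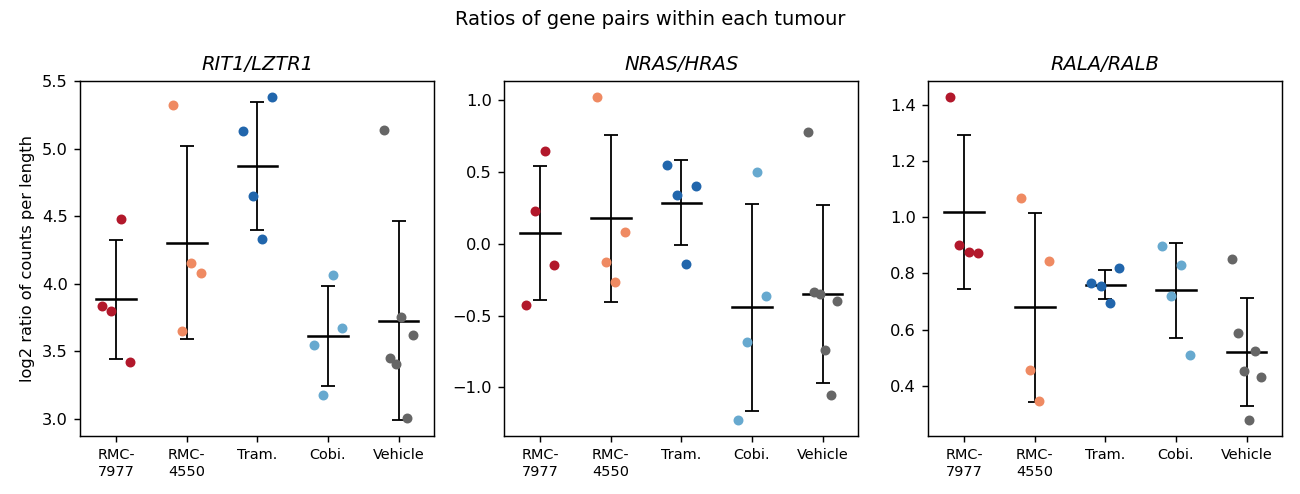
Log2 ratio of counts per length for 3 pairs of genes in each tumour, by treatment, with points for tumours, lines for means and bars for SD (n = 4 per drug, n = 6 Vehicle). The RALA to RALB points for RMC-7977 (0.87 to 1.43) lie above those for Vehicle (0.28 to 0.85), and 1 Vehicle tumour stands high in the RIT1 to LZTR1 panel at 5.14.

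The genes that control or answer to RAL proteins were 16, all tested, and 0 passed by edgeR in any single drug. At an unadjusted p under 0.05 there were 2 with RMC-7977, 1 with RMC-4550 and 2 with trametinib, where 10.3%, 4.24% and 18.8% of all genes had such a p. DESeq2 called 1 with RMC-7977 and 1 with trametinib, beside 3.28% and 1.73% of all genes. In the fit without the 4 libraries that stood apart, 2 passed with RMC-7977, 5 with trametinib and 4 over the 5 groups, beside 6.38%, 15.1% and 12.1%. RGL1, a RAL exchange factor, was the 1 of 16 that passed in the test over the 5 groups (edgeR quasi-likelihood adjusted p = 0.0367), beside 1.46% of all genes. It averaged 14.6 ± 3.3 CPM with RMC-7977 and 14.9 ± 4.4 with trametinib, against 9.27 ± 3.5 with RMC-4550, 6.90 ± 1.2 with cobimetinib and 7.90 ± 0.81 with Vehicle (SD, n = 4 per drug and 6). All RMC-7977 and trametinib tumours (10.2 to 20.3) lay above all Vehicle tumours (6.45 to 8.61). Of all genes 4.12% did not overlap between RMC-7977 and Vehicle, and 1.17% between trametinib and Vehicle. RGL1 was named because it passed over the 5 groups, so its separation adds no support. The log2 fold changes of RGL1 over Vehicle were 0.88 with RMC-7977 (SE 0.24, adjusted p = 0.0829) and 0.90 with trametinib (SE 0.24, adjusted p = 0.0915). The call over 5 groups was lost in 14 of 22 fits with 1 tumour left out, where its adjusted p was at most 0.0974. Over the 16 genes the median was 0.12 with RMC-7977, with 12 above 0, and -0.13 with trametinib, with 4 above 0. Of all genes 49.3% and 49.6% were above 0 in these comparisons.

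Beyond the 9 genes, 27 other genes of the RAS branch of small GTPases were listed, and 18 were tested. With RMC-7977, 2 of these 18 fell and none rose, beside 0.748% of all genes. DESeq2 called 2 of 25 tested, beside 3.28%, and edgeR without the 4 libraries that stood apart called 3 of 17, beside 6.38%. With the other 3 drugs 0 of 18 passed, with 1 gene at an unadjusted p under 0.05 for RMC-4550, 4 for trametinib and 1 for cobimetinib, where 4.24%, 18.8% and 3.30% of all genes had such a p. DESeq2 called 1 with trametinib, beside 1.73%. RASD1, a RAS-like protein induced by glucocorticoids, averaged 14.6 ± 4.7 CPM with RMC-7977 and 42.3 ± 18 with Vehicle, a log2 fold change of -1.54 (SE 0.36, edgeR quasi-likelihood adjusted p = 0.0438). GEM, an immediate-early GTPase that inhibits calcium channels, averaged 4.43 ± 0.97 with RMC-7977 and 10.6 ± 1.8 with Vehicle, a change of -1.26 (SE 0.27, adjusted p = 0.0262). All 4 RMC-7977 tumours (3.25 to 5.63) lay below all 6 Vehicle tumours (9.20 to 13.8) for GEM. In this comparison 4.12% of all genes did not overlap. GEM was named because it passed the threshold there, so its separation adds no support. For RASD1 the RMC-7977 tumours reached from 8.5 to 18.5, against 16.5 to 63.1 with Vehicle. RASD1 also averaged 11.6 with trametinib (-1.88, SE 0.37, adjusted p = 0.0663), 21.0 with RMC-4550 and 22.4 with cobimetinib, and it passed in the test over 5 groups (adjusted p = 0.0227), beside 1.46% of all genes.

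The calls of both genes were near the threshold. With 1 tumour left out, RASD1 with RMC-7977 passed in 6 of 22 fits and GEM in 16 of 22, with log2 fold changes of -1.70 to -1.35 and -1.41 to -1.15. The call of RASD1 over the 5 groups was lost in 5 of 22 such fits and in 2 of 10 other settings. Among the markers of other cells, 1 of 5 endothelial markers tested, PECAM1 (a log2 value of -1.71 over Vehicle, adjusted p = 0.0235 by edgeR), and 1 of 4 myeloid markers, LAPTM5 (-3.76, adjusted p = 0.00591), fell with RMC-7977. Only 4 of the 10 myeloid markers passed the filter on low counts. All 4 were below 0 with RMC-7977, and 3 of them were not called. The endothelial marker VWF averaged 2.52 ± 1.0 CPM with RMC-7977 and 1.48 ± 0.93 with Vehicle (log2 fold change 0.77, adjusted p = 0.827). The summed endothelial levels overlapped between the groups and the summed myeloid levels did not, and their part in the RASD1 and GEM values was not tested.

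The genes that attach and trim the lipid anchors of RAS proteins showed no call with all tumours. All 16 were tested and 0 passed by edgeR in any drug or over the 5 groups. At an unadjusted p under 0.05 there were 1 with RMC-7977, 2 with trametinib and 2 with cobimetinib, where 10.3%, 18.8% and 3.30% of all genes had such a p. DESeq2 called 1 with RMC-7977 and 1 over the 5 groups, beside 3.28% and 7.00%. In the fit without the 4 libraries that stood apart, 1 passed with RMC-7977, 5 with trametinib and 4 over the 5 groups, beside 6.38%, 15.1% and 12.1% of all genes. ICMT, the methyltransferase that completes prenylated ends, averaged 176 ± 22 CPM with RMC-7977 and 179 ± 29 with Vehicle (log2 fold change -0.02, SE 0.18). LYPLA1, a depalmitoylating enzyme, had a log2 fold change of 0.55 with trametinib (SE 0.31, edgeR quasi-likelihood adjusted p = 0.330) and 0.15 with RMC-7977. The median over the 16 genes was -0.03 with RMC-7977 and -0.22 with trametinib.

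Across the 22 tumours the genes whose levels ranked most like RIT1 were FEM1C, a cullin substrate receptor, with a Spearman rho of 0.964, DNAJC10, a reductase of the endoplasmic reticulum (0.940), PIK3C2A, a phosphoinositide kinase (0.940), TTC37, a subunit of the SKI complex (0.936), and RLIM, a ubiquitin ligase (0.936). They were taken from 11042 protein-coding genes, and the values are a description of libraries that share their depth and composition. Their transcripts are 37.1% to 38.9% GC, near the 40.2% of RIT1. With the 4 libraries that stood apart left out the rho of these 5 genes was 0.891 to 0.948 over 18 tumours. Among the members, rho with RIT1 was highest for MRAS (0.741), NRAS (0.636), RALA (0.626) and RRAS2 (0.603). It was lower for RRAS (0.315) and RALB (0.054), and below 0 for LZTR1 (-0.353) and HRAS (-0.598). Over all genes ranked the median rho was 0.109, and the 5% and 95% quantiles were -0.597 and 0.781. No member reached the upper quantile, and HRAS lay close to the lower.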

How the data were processed

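RNA sequencing libraries of 22 tumours were represented by 1 table of whole-number read counts per gene, deposited by the authors with no normalization. Per the submitters' processing notes the build was hg38 and the tools included featureCounts 1.5.0-p3 and HISAT2 2.0.5, with no roles given. How strand, annotation and host reads were handled is not stated there, but the positions of all 58735 genes equal those of GENCODE 29. Groups were taken from the labels.

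The counts were filtered with edgeR's filterByExpr (minimum count 10), which left 17652 genes and 99.718% of the counts, and scaled by TMM. The test was edgeR 4.0.16's robust quasi-likelihood F-test in R 4.3.3, with 1 mean per group over all 22 tumours and Benjamini-Hochberg adjustment, at a threshold of 0.05. Levels are CPM, the deposited counts divided by TMM-scaled library sizes, and a prior count of 2 was used for log2 values in correlations. Ratios within a tumour were compared by exact permutation with scipy 1.17.1. Scripts were tested on simulated data. Alternatives were DESeq2 1.42.0, other scalings and filters, 2-group fits, a replicate block, a correction for GC content (known for 58676 genes), and leaving out each tumour or, chosen after seeing the data, the 2 or 4 libraries that stood apart.

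The 9 genes, the ratios and the gene lists were chosen with earlier results of these data known. Named from each list were up to 4 genes past the threshold, or the 2 with the highest level where none passed, with DUSP6, ETV4 and SPRY4 as a check of the drugs and the 5 genes ranked most like RIT1. Some genes are not reported here.

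Replicate numbers are shared between groups. Deviations of same-numbered tumours correlated at 0.170 to 0.711 between RMC-4550 and Vehicle and at 0.136 to 0.202 between trametinib and Vehicle over 3 pairs each. Both were taken as paired from these correlations, and not from the labels. Deviations correlated at -0.230 to 0.031 for RMC-7977 and -0.257 to 0.125 for cobimetinib, which were not taken as paired. The 0.711 joined RMC-4550 replicate 1 and Vehicle replicate 1, the libraries with the lowest GC correlations (-0.584 and -0.538). Whether shared library composition gave that value was not tested. The main tests were unpaired.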

Additional observations from a re-analysis of the deposited data

Results flagged for a closer look

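A single tumour stood far from the rest of its group in 6 of 60 groups of tumours examined, by Dixon's criterion at the 95% level, which chance alone meets in about 1 of 20 groups. NRAS measured 180.8 CPM in RMC-4550 replicate 1, against 90.06 to 91.48 in the other 3 tumours of that group. Vehicle replicate 1 stood apart for 4 values. In it NRAS measured 169.5 CPM (57.95 to 80.95 in the other 5), RRAS2 51.37 (20.1 to 30.05) and RALA 156.2 (68.62 to 80.17). The log2 ratio of RIT1 to LZTR1 in this tumour was 5.135, against 3.008 to 3.752 in the other 5. The log2 ratio of RALA to RALB was 1.427 in RMC-7977 replicate 1, against 0.8713 to 0.9 in the other 3.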

How the results depend on the processing

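The absence of a call held in most settings but not in all. DESeq2 called 1 of the 9 genes with trametinib, 1 over the 5 groups and 1 between drugs, LZTR1 each time, and the GC correction called 1 between drugs, also LZTR1. Without the 4 libraries that stood apart, a choice made after seeing the data, 1 gene was called with RMC-7977 (MRAS), 3 with trametinib (LZTR1, NRAS and RALA), 1 over the 5 groups and 2 between drugs (both LZTR1). With single tumours left out, 0 to 2 of the 9 were called with trametinib and 0 to 2 between drugs. The count over all genes moved more, with 132 called for RMC-7977 as reported, 590 by DESeq2, 2 with the replicate block and 1134 without the 4 libraries. For trametinib it was 0 as reported, 363 by DESeq2, 301 with a mean of at least 1 CPM and 2686 without the 4 libraries, and up to 1428 with 1 tumour left out. For RMC-4550 it was 5 as reported, 35 by DESeq2 and 0 with the block, and for the 5 groups 257 as reported, 1528 by DESeq2, 3162 with no filter and 5 with the block. The cause was not tested.

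Of 396 log2 fold changes of the 9 genes in other settings 50 changed sign, none of them called, and the largest was 0.3459 in size. With those of the ratios and ETV4, they were RALA 0.0092 with cobimetinib by DESeq2, RALA 0.0097 with cobimetinib with RLE scaling, and RALA 0.00066 with cobimetinib with the filter on the mean. Library-size scaling gave MRAS -0.0082 with trametinib and RALA 0.057 with cobimetinib, and no filter gave RIT1 -0.012 with trametinib, MRAS -0.028 with trametinib and RALA 0.0068 with cobimetinib. The GC correction gave RIT1 -0.19 with trametinib, HRAS 0.081 with RMC-4550, 0.32 with trametinib, -0.027 with cobimetinib, RRAS -0.14 with cobimetinib, RRAS2 -0.0097 with RMC-7977, -0.053 with RMC-4550, -0.13 with trametinib, MRAS -0.0082 with trametinib and RALA 0.088 with cobimetinib. Without the 2 libraries with few low counts, chosen after seeing the data, the values were RRAS -0.20 with trametinib, RRAS2 -0.11 with RMC-7977, RALB -0.017 with trametinib and RIT1 to LZTR1 -0.041 with RMC-7977. Without the 4 libraries they were LZTR1 -0.083 with cobimetinib, RRAS -0.17 with trametinib, RALA 0.045 with RMC-4550, 0.23 with cobimetinib, RIT1 to LZTR1 0.17 with cobimetinib and NRAS to HRAS 0.13 with cobimetinib.

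The replicate block changed no call of the 9 genes. LZTR1 with trametinib, where same-numbered tumours were taken as paired, was -0.89 with the block (edgeR quasi-likelihood adjusted p = 0.978). The calls of RASD1, GEM and RGL1 and the 6 calls of ERK target genes with RMC-7977, whose tumours were not taken as paired with Vehicle, were also lost. Their log2 fold changes with the block were RASD1 -1.24, GEM -1.43, DUSP6 -3.28, ETV4 -3.60 and SPRY4 -3.26, beside -1.54, -1.26, -3.69, -4.49 and -3.40 without it. Signs changed under the block for RIT1 -0.026 with trametinib, -0.014 with cobimetinib, NRAS -0.18 with cobimetinib, HRAS 0.017 with RMC-7977, 0.00080 with trametinib, RRAS -0.097 with cobimetinib, RRAS2 -0.12 with RMC-7977, -0.13 with RMC-4550, -0.13 with trametinib, -0.096 with cobimetinib, MRAS -0.019 with trametinib, RALA -0.033 with RMC-7977 and ETV4 0.064 with cobimetinib. With the block and the GC correction they changed for RIT1 -0.17 with trametinib, NRAS -0.055 with cobimetinib, HRAS 0.017 with RMC-7977, 0.065 with RMC-4550, 0.35 with trametinib, -0.028 with cobimetinib, RRAS -0.31 with cobimetinib, RRAS2 -0.14 with RMC-7977, -0.19 with RMC-4550, -0.26 with trametinib, MRAS -0.047 with trametinib, RALA -0.029 with RMC-7977 and RALB -0.032 with trametinib. Paired differences over 3 pairs, whose smallest p is 0.25, changed the sign for RALA to RALB -0.0063 with RMC-4550.

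With single tumours left out, 64 of 792 log2 fold changes of the 9 genes changed sign, none of them called. MRAS ranged over -0.19 to 0.19 with trametinib. RALA ranged over -0.081 to 0.24 with cobimetinib and -0.21 to 0.22 with RMC-4550. RRAS2 ranged over -0.099 to 0.30 with RMC-7977, -0.026 to 0.31 with RMC-4550 and -0.049 to 0.31 with trametinib. LZTR1 ranged over -0.057 to 0.22 with RMC-7977 and -0.076 to 0.16 with cobimetinib. HRAS ranged over -0.0081 to 0.30 with cobimetinib. RRAS ranged over -0.049 to 0.16 with cobimetinib and -0.22 to 0.61 with trametinib. RIT1 ranged over -0.049 to 0.098 with cobimetinib and -0.060 to 0.15 with trametinib. NRAS ranged over -0.20 to 0.31 with cobimetinib. RALB ranged over -0.035 to 0.30 with trametinib. Among the log2 ratios, RIT1 to LZTR1 ranged over -0.041 to 0.44 with RMC-7977, -0.26 to 0.17 with cobimetinib and 0.98 to 1.43 with trametinib, NRAS to HRAS ranged over -0.41 to 0.17 with cobimetinib, 0.24 to 0.75 with RMC-4550 and 0.50 to 0.86 with trametinib, RALA to RALB ranged over 0.36 to 0.56 with RMC-7977 and 0.19 to 0.30 with trametinib. The lowest counts in any library were those of LZTR1 (28 to 387 per library), MRAS (99 to 632) and RRAS (129 to 328), beside 512 to 2128 for RIT1. The part of depth in their values was not tested.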
